A study of Mus musculus with 8 samples.

Results

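MHC class I presentation was followed through 10 genes, chosen by their symbols: the heavy chains H2-K1, H2-D1, H2-Q4, H2-Q6 and H2-Q7, the light chain B2m, the peptide transporter genes Tap1 and Tap2, the loading factor Tapbp and the transcriptional regulator Nlrc5. All 10 were found among the 28239 symbols in the deposited table of counts. All 10 also passed the filter on low values, which kept the 12700 symbols at 2 CPM or more in at least 4 libraries, CPM being counts scaled for library size by the TMM method. The libraries came from splenic naïve CD4+ T cells of C57BL/6 background mice, either wild type (WT) or Alox15-/-, with 4 libraries in each group. Both groups received the same 2 days of Treg culture, in which beads against CD3 and CD28 were given at 1 per cell, TGF-β at 5 ng/ml and IL-2 at 100 U/ml. The mice of the study as a whole were females and males between 10 and 12 weeks of age, and neither the sex nor the age behind a single library is given in the sources used here. The Alox15-/- mice were a purchased line deficient in the gene in the whole animal, and the part of Alox15 that this allele lacks is likewise not given. The comparison addresses how the transcripts of class I presentation stood in Tregs from Alox15-/- mice relative to those from WT mice.

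The assay was MACE-seq, which sequences 1 end of each transcript, near its 3′ end. Between 3723151 and 9538962 reads were counted per library. The targeted gene, Alox15, went against the labels: the libraries labelled Alox15-/- held 66.8 ± 3.18 CPM of it (SD, n = 4) and those labelled WT 5.28 ± 3.59 CPM. All directions below are therefore those of the libraries labelled Alox15-/- relative to the libraries labelled WT, and a tag at the 3′ end checks no deletion elsewhere in the gene. Whether the group labels were exchanged was not tested, and an exchange would turn every sign given here. The 9 markers of T cells and Tregs, Foxp3 and Cd4 among them, summed to between 2896 and 3056 CPM in the libraries labelled Alox15-/- and to between 3002 and 3192 CPM in those labelled WT. The sums overlapped, but single markers stood apart without passing the adjusted edgeR threshold: Cd4 was lower in every library labelled Alox15-/- (209 to 295.5 CPM) than in every WT library (326 to 350.1 CPM), Cd3g was higher (151 to 169 CPM against 110.4 to 139 CPM), and Foxp3 overlapped (71.4 to 113 CPM against 92.9 to 194 CPM). The marker sums of some other cells moved with the groups. The 7 erythroid markers summed to between 903 and 3473 CPM against 33.7 to 122 CPM, the 6 mast cell and basophil markers to between 132 and 321 CPM against 56.9 to 81.4 CPM, the 8 myeloid markers to between 37.9 and 285 CPM against 6.52 to 14.2 CPM, and the 8 markers of NK and γδ T cells to between 92.5 and 166 CPM against 32.7 to 52.9 CPM. By edgeR 5, 5, 4 and 5 genes of these lists were called higher, in the same order, and none of the 29 genes was at 0 in every library. Every library labelled Alox15-/- lay above every WT library for 7, 5, 5 and 5 of these genes. In the last list these were Klrd1, Trdc, Tcrg-C1, Tcrg-C2 and Tcrg-C4. Ncr1 (0 to 0.72 against 0 to 1.25 CPM) and Klrb1c (0.48 to 2.97 against 0.16 to 1.72 CPM) overlapped at low levels. Eomes also overlapped (4.01 to 7.56 CPM against 2.30 to 4.06 CPM). The 2 CD8 T cell markers (12.02 to 21.8 CPM against 21.3 to 31.6 CPM), the 6 B cell markers (211 to 309 CPM against 207 to 299.7 CPM) and the 6 markers of dendritic cells and MHC class II (125 to 239 CPM against 153 to 192 CPM) overlapped between the groups, with 1 gene called, the B cell marker Ms4a1, which was lower. In bulk RNA a change in the number of cells of a type and a change in the RNA of each cell cannot be told apart.

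MHC class I molecules show peptides made inside a cell to CD8 T cells and to receptors of NK cells. Each consists of a polymorphic heavy chain and the invariant light chain β2-microglobulin. Peptides cut by the proteasome are carried into the endoplasmic reticulum by the TAP transporter, where tapasin holds empty molecules beside it until a peptide is bound. Nearly all nucleated cells express the classical heavy chains, lymphocytes strongly, and interferons raise the genes of the whole pathway. NLRC5 is the transactivator that assembles on a shared promoter module of the class I genes, in which an X box and a CCAAT-bearing Y box stand side by side, with an interferon-responsive element and a site for NF-κB further upstream.

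The promoter windows of the heavy chains and of B2m are shown because these genes share that module and because H2-Q4, H2-Q6 and H2-Q7 vary in it. RefSeq windows of the GRCm38.p6 build were found for 8 of the 10 genes, Tap2 and Nlrc5 having no entry, and only the 250 bases before the start site were searched. The stretches of 4 heavy chain genes and that of B2m follow, each 115 bases long and read 5′ to 3′ on the strand of the gene. Capitals mark matches, on either strand, to AANNGAAA (the core bound by interferon regulatory factors), GGGATTCCC (an NF-κB site), TGACG (the core of the X2 box) and CCAAT (the Y box).
H2-K1, chr17:34000348-34000462, minus strand: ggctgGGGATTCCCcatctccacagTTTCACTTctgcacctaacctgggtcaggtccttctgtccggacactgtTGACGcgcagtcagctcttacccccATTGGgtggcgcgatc
H2-Q4, chr17:35379439-35379553, plus strand: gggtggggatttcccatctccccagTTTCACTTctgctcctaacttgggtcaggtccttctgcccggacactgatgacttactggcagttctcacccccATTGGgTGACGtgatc
H2-Q6, chr17:35424673-35424787, plus strand: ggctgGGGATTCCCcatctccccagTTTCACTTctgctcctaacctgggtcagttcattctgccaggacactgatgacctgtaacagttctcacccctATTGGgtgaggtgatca
H2-Q7, chr17:35439017-35439131, plus strand: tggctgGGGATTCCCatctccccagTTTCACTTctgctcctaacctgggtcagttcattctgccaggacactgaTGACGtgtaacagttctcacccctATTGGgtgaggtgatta
B2m, chr2:122147525-122147639, plus strand: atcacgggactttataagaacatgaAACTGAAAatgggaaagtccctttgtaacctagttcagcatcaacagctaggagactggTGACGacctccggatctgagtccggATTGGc

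The interferon regulatory factor core was present in 6 of the 8 windows, those of the 5 heavy chain genes and B2m, and in 21.3% of all 32851 promoter windows. The NF-κB letters stood before H2-K1, H2-D1, H2-Q6 and H2-Q7, against 0.301% of all windows. TGACG followed within 30 bases by ATTGG, the CCAAT letters read on the other strand, occurred before H2-K1, H2-D1, H2-Q7 and B2m and in 0.785% of all windows. H2-Q6 held no TGACG in its window, and H2-Q4 held TGACG only after the ATTGG of its stretch. The interferon-γ element TTCNNNGAA was in 0 of the 8 windows and in 7.02% of all. The stretch of H2-D1 lies inside an exon of a longer annotated transcript and is not shown. Tap1 and Tapbp had CCAAT (33.8% of all windows), and Tap1 also TGACG (17.8%), without the paired arrangement. A match describes the letters of a window and no binding was measured.

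The classical heavy chains H2-K1 and H2-D1, which present peptides to most CD8 T cells, had higher means in the libraries labelled Alox15-/- but did not pass the adjusted threshold. H2-K1 (ENSMUSG00000061232.16; chromosome 17, 33996017 to 34000347) was at 1270.1, 1355, 1257 and 1185 CPM in the libraries labelled Alox15-/- replicates 1 to 4 and at 1197, 1132, 1115 and 912 CPM in WT replicates 1 to 4. The groups overlapped, with WT replicate 1 above Alox15-/- replicate 4. The log2 fold change of H2-K1 was 0.22 (standard error 0.101; unadjusted p = 0.0478, adjusted p = 0.634 after Benjamini–Hochberg correction over all genes tested in edgeR's quasi-likelihood framework). H2-D1 (ENSMUSG00000073411.11; chromosome 17, 35262730 to 35267499) was at 1139.9, 1252, 1217 and 1192 CPM against 1145, 1103, 1136 and 1018 CPM. Here too 1 library of each group crossed into the other. The difference of H2-D1 was 0.13 on the log2 scale (95% interval -0.061 to 0.31, standard error 0.0875), and the edgeR adjusted p was 0.792.

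The Qa-2 genes H2-Q6 and H2-Q7, which encode nonclassical class I molecules of the Qa-2 type, were the members that stood furthest apart. H2-Q7 (ENSMUSG00000060550.16; chromosome 17, 35439155 to 35443773) was at 170.4, 209, 196 and 173 CPM in the libraries labelled Alox15-/- and at 137, 128, 139 and 91.0 CPM in WT. Every library labelled Alox15-/- lay above every WT library. H2-Q7 rose by 50.4%, a log2 fold change of 0.59 (standard error 0.131, 95% interval 0.31 to 0.87, edgeR adjusted p = 0.0361), and was the 1 member past the adjusted threshold of 0.05. In the same fit 1.24% of all genes tested passed, with 1.05% of the genes tested called higher in the Alox15-/- group and 0.197% called lower. The call did not hold evenly across libraries. With each library left out in turn, H2-Q7 passed without WT replicate 3 (edgeR adjusted p = 0.028) and without WT replicate 4 (0.0396), and the other 6 fits gave adjusted p between 0.0585 and 0.163 with log2 fold changes between 0.53 and 0.64.

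H2-Q6 (ENSMUSG00000073409.12; chromosome 17, 35424850 to 35430055) was at 26.2, 33.2, 21.8 and 25.04 CPM against 17.5, 18.5, 15.3 and 11.7 CPM in WT, from 56 to 175 reads a library. Again the groups did not overlap. The log2 fold change of H2-Q6, 0.74 (standard error 0.172, 95% interval 0.37 to 1.11), was the largest among the members, and the adjusted p was 0.0502 by edgeR, just outside the threshold. It passed in 6 of the 10 other settings that kept all libraries and in 0 of the 8 fits that each left a library out. H2-Q4 (ENSMUSG00000035929.11; chromosome 17, 35379617 to 35385290), the heavy chain of the soluble class I molecule Qb-1, showed another pattern. Its values were 11.8, 8.64, 11.7 and 18.7 CPM against 12.8, 14.7, 15.8 and 6.89 CPM, so that its highest library was labelled Alox15-/- and its next highest were WT. The log2 fold change of H2-Q4 was 0.03 with an interval from -0.52 to 0.57 (edgeR adjusted p = 0.991), and the value was -0.24 without Alox15-/- replicate 4 and -0.15 without WT replicate 4.

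The H2-Q genes are near-identical copies, and the counting method that assigned their reads is not given in the sources used here. Of all windows of 50 bases in the last 500 bases of their coding transcripts in GENCODE M21, 57.1% were found in no other gene for H2-Q6, 66.3% for H2-Q4 and 88.2% for H2-Q7. H2-Q6 shared 216 of its 902 windows with H2-Q7. The split of reads between these genes is uncertain at least to that extent. For H2-K1 90.4% of the windows were found in no other gene, for H2-D1 91.1% and for the remaining 5 members between 95.2% and 100%. H2-Q8 and H2-Q9 were not among the deposited symbols and are in no sum here. Where any reads of theirs were counted cannot be told. Summed to 1 feature, the 7 listed H2-Q genes were at 217, 265, 237 and 224 CPM in the libraries labelled Alox15-/- and at 175, 171, 177 and 114 CPM in WT, without overlap. On the log2 scale the sum differed by 0.56 (standard error 0.132) with an edgeR adjusted p of 0.0536. H2-K1 and H2-D1 summed gave 0.17 (edgeR adjusted p = 0.716).

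B2m (ENSMUSG00000060802.8; chromosome 2, 122147686 to 122153083) encodes the light chain that the class I heavy chains share. It was at 3913, 3905, 4092 and 3707 CPM in the libraries labelled Alox15-/- and at 3596, 3500.3, 2769 and 2763 CPM in WT. No library of one group lay within the other, and the WT libraries fell into a higher and a lower pair. The log2 fold change of B2m was 0.31 (standard error 0.109, 95% interval 0.075 to 0.54) with an unadjusted p of 0.013 and an edgeR adjusted p of 0.398, so it was not called. Together with H2-Q6 and H2-Q7 it made 3 of 10 members whose groups did not overlap with the libraries labelled Alox15-/- higher, beside 2.75% of all genes tested with the same order and 5.25% in either order.

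**Figure D1:**
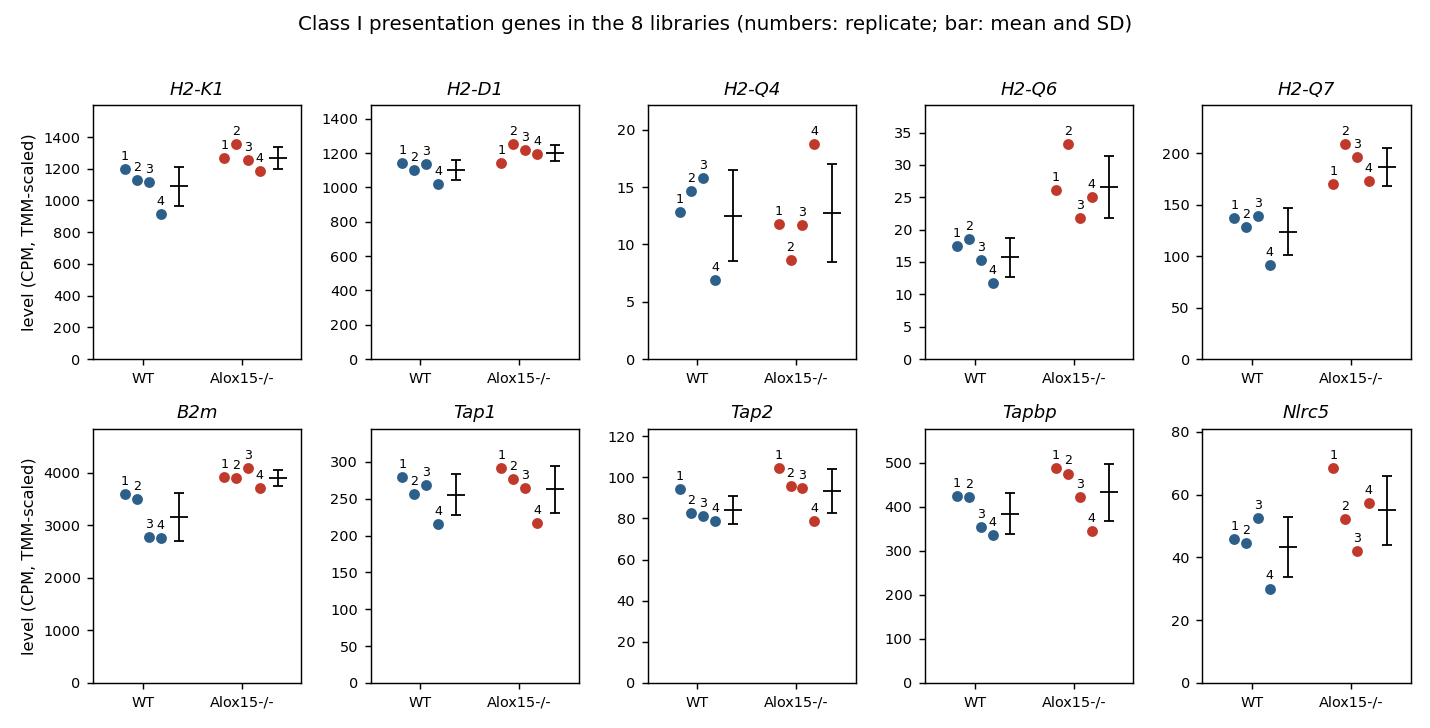
Level of each of the 10 genes in CPM after TMM scaling (vertical axes, from 0) in the 4 WT and 4 Alox15-/- libraries (points, numbered by replicate), with the mean and SD of each group as a bar. H2-Q6, H2-Q7 and B2m show no overlap between the groups, and WT replicate 4 is the lowest point in all 10 panels.

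Tap1 and Tap2 encode the subunits of the peptide transporter and lie beside each other on chromosome 17 (34187553 to 34197225 and 34203527 to 34216321). Tap1 (ENSMUSG00000037321.17) was at 292, 276, 265 and 218 CPM in the libraries labelled Alox15-/- and at 280.0, 256, 268 and 216 CPM in WT, so both groups covered nearly the same range. The log2 fold change of Tap1 was 0.04 (95% interval -0.20 to 0.28, edgeR adjusted p = 0.967), below 0 without Alox15-/- replicate 1 (-0.013) or WT replicate 4 (-0.028). Tap2 (ENSMUSG00000024339.12) was at 105, 95.6, 94.8 and 78.9 CPM against 94.2, 82.8, 81.1 and 78.7 CPM. In both groups replicate 4 was the lowest, and Tap2 differed by 0.15 on the log2 scale (95% interval -0.089 to 0.38, edgeR adjusted p = 0.817). Tapbp (ENSMUSG00000024308.15; chromosome 17, 33915899 to 33929292), the gene of tapasin, was at 488, 476, 422 and 345 CPM against 424, 423, 354 and 336 CPM. The groups overlapped, and the log2 fold change of Tapbp was 0.17 (standard error 0.122, 95% interval -0.090 to 0.43, edgeR adjusted p = 0.804). Of the members, Tap1 (Psmb9), B2m (Patl2), Tap2 (Gm15821 and Gm20496), Nlrc5 (9330175E14Rik), H2-Q4 (Gm11131) and Tapbp (Gm19412) overlap genes on the other strand, and Tapbp (Zbtb22) and Nlrc5 (Mir7072) also overlap a gene on their own strand. These overlaps are between whole genes, and whether they reach the sequenced 3′ ends was not checked. The strand setting of the counting is not given in the sources used here. Where overlaps do reach the 3′ ends, reads of such genes cannot be told apart.

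Nlrc5 (ENSMUSG00000074151.13; chromosome 8, 94434356 to 94527272), the class I transactivator, was at 68.5, 52.1, 42.0 and 57.4 CPM in the libraries labelled Alox15-/- and at 45.9, 44.6, 52.6 and 30.1 CPM in WT. Alox15-/- replicate 3 was below 3 of the WT libraries, and the spread within either group was about as wide as the gap between their means. Nlrc5 differed by 0.33 on the log2 scale (standard error 0.169, 95% interval -0.028 to 0.69, edgeR adjusted p = 0.687), and by 0.20 without WT replicate 4 or 0.22 without Alox15-/- replicate 1. Alox15 lies on chromosome 11, apart from all 10 members.

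Taken over the 10 members, the estimated log2 fold change was above 0 in 10 of 10, with a median of 0.19 and a range from 0.03 to 0.74. Among all genes tested 48.2% were above 0 and the median was -0.0073. At an unadjusted p under 0.05, 4 members differed, all with the libraries labelled Alox15-/- higher (H2-K1, H2-Q6, H2-Q7 and B2m), beside 7.84% of all genes in either direction and 4.46% in this one. The 10 genes took 0.704% to 0.762% of the reads of a library in the Alox15-/- group and 0.544% to 0.684% in the WT group, most of them on B2m, H2-K1 and H2-D1.

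**Figure D2:**
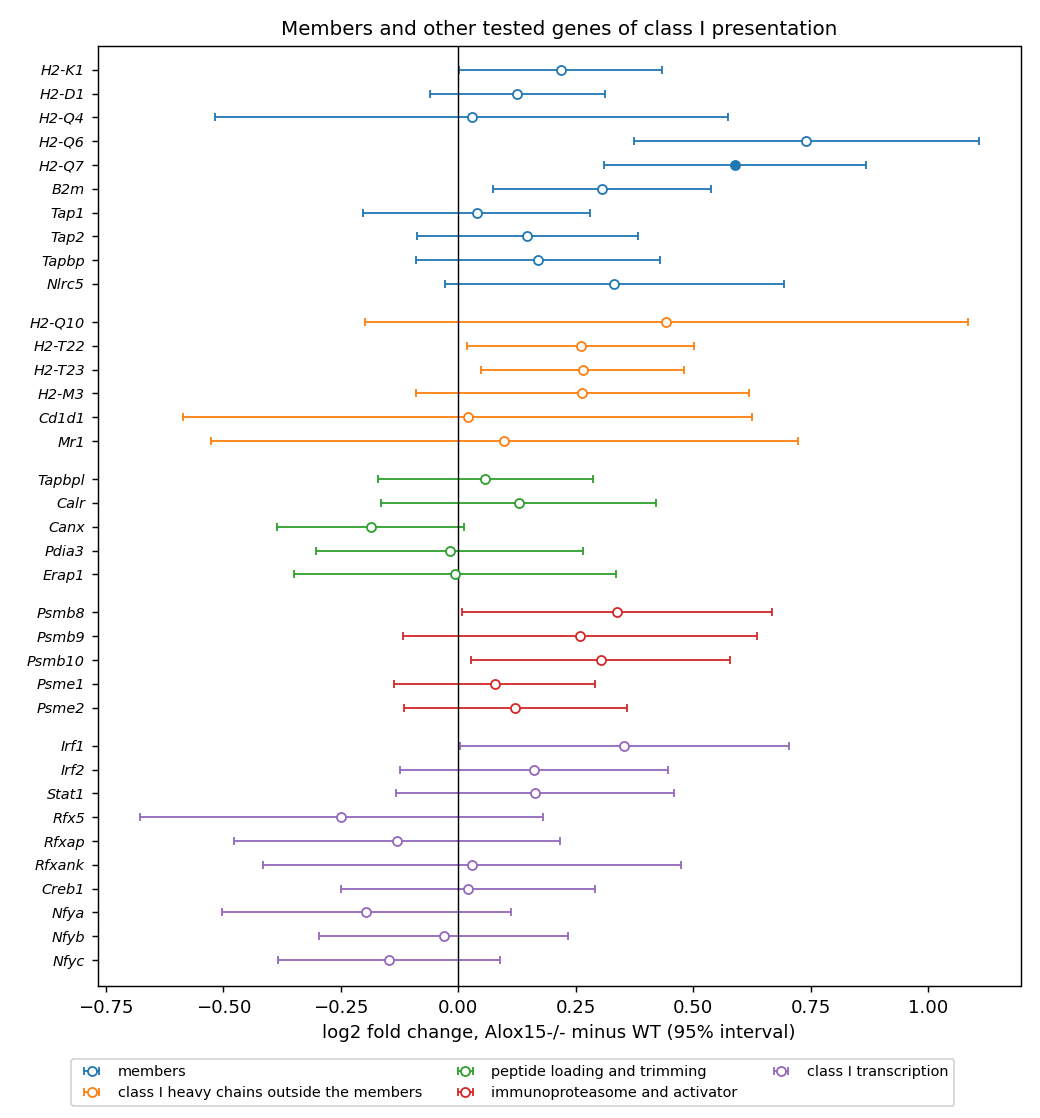
Log2 fold change (horizontal axis, Alox15-/- minus WT) with its 95% interval for the 10 members and the 26 other tested genes of class I presentation, coloured by list. The filled point is the 1 gene with an adjusted p under 0.05, H2-Q7, and all other points are open.

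The members shared a lowest library. WT replicate 4 was the lowest of the 8 libraries for all 10, as it was for 16.6% of the genes tested and for 12 of the 26 other tested genes of class I presentation described below. The members stood there at a median of -0.25 relative to their WT means on the log2 scale, whereas the median in the other 3 WT libraries was between 0.04 and 0.14. Its total of 4810125 reads lay within the range of the libraries labelled Alox15-/-, and the sum of its T cell and Treg markers, 3044 CPM, lay within the range of the other WT libraries. Singly, 7 of these 9 markers lay outside the other 3 WT libraries, 2 above (Trac at 613 CPM and Cd4 at 350.1 CPM) and 5 below (Cd3e, Cd3g, Foxp3, Il2ra and Ikzf2). The erythroid (122 CPM), mast cell and basophil (81.4 CPM) and myeloid markers (14.2 CPM) had their highest WT sums in this library. The dendritic cell and MHC class II sum (192 CPM) was also the highest, through Cd74 alone, since H2-Aa and Flt3 were below the other WT libraries. The B cell sum (207 CPM) was the lowest, mostly through Ighm, while Ms4a1 was above the other WT libraries. The NK and γδ T cell sum (43.0 CPM) lay within the range of the other WT libraries. Of its 8 markers 4 were below them (Eomes, Tcrg-C1, Tcrg-C2 and Tcrg-C4) and 1 above (Ncr1). The part of other cells in this pattern was not tested. The pattern was noticed after the values were seen. Without that library the median log2 fold change of the members fell to 0.13, with 8 of 10 above 0, and H2-Q7 was the member called. The highest value belonged to a library labelled Alox15-/- for all 10, beside 47.5% of all genes tested. Replicates 1 and 2 were the highest for 4 members each and replicates 3 and 4 for 1 each.

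**Figure D3:**
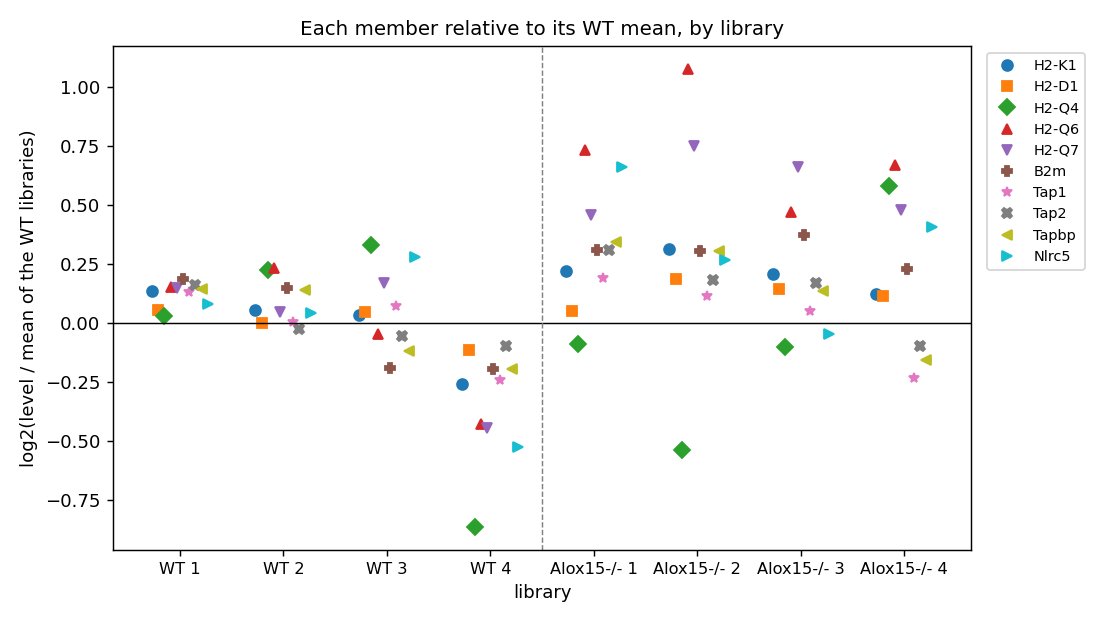
Each member's level divided by its mean in the WT libraries, on the log2 scale (vertical axis), in the 8 libraries (horizontal axis), with 1 symbol for each gene. All 10 symbols are below 0 in WT replicate 4, while H2-Q6 and H2-Q7 are above 0.4 in all 4 libraries labelled Alox15-/-.

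Among the libraries labelled Alox15-/-, some marker lists and members ran in the same order. With 4 libraries few orders are possible, so some matches arise by chance. Whether there were more matches than chance gives was not tested. Mast cell and basophil markers summed to 195, 321, 165 and 132 CPM in replicates 1 to 4, the order of H2-K1, which Ms4a2, Fcer1a and Mcpt8 followed singly and Cpa3, Kit and Gata2 did not. B cell markers summed to 309, 292, 264 and 211 CPM, the order of Tap1, Tap2 and Tapbp, and among these markers only Ighm followed it singly. The sum of the CD8 T cell markers ran in the order of B2m, which neither Cd8a nor Cd8b1 followed singly. Erythroid markers were highest in replicates 2 and 3 (3299 and 3473 CPM) and lower in replicates 1 and 4 (1091 and 903 CPM). H2-D1 and H2-Q7 were likewise highest in replicates 2 and 3, B2m, H2-K1 and H2-Q6 were not, and Tap1, Tap2, Tapbp and Nlrc5 were highest in replicate 1. The part of other cells in the differences of the members was not tested.

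Ratios within a library need no scaling, and 3 were compared. Tap1 reads per Tap2 read were 2.81 ± 0.058 in the Alox15-/- group and 3.03 ± 0.236 in the WT group (mean ± SD over 4 libraries), a difference with p = 0.143 in an exact two-sided permutation test (0.214 after Benjamini–Hochberg adjustment over the 3 ratios). Reads on H2-K1 and H2-D1 per B2m read were 0.632 ± 0.0281 against 0.700 ± 0.0794 (SD, n = 4; exact permutation p = 0.143, adjusted 0.214). H2-Q6 reads per H2-Q7 read were 0.142 ± 0.0214 against 0.127 ± 0.0142 (SD, n = 4; exact permutation p = 0.314, adjusted 0.314). Without WT replicate 3 the log2 difference of Tap1 per Tap2 went from -0.11 to -0.063, that of H2-K1 and H2-D1 per B2m from -0.14 to -0.067, and that of H2-Q6 per H2-Q7 from 0.15 to 0.082. The last was 0.27 without Alox15-/- replicate 3, and 0.095 without Alox15-/- replicate 2. None of the 3 differences passed the test, whose smallest possible p with 4 libraries against 4 is 0.0286.

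The other genes of class I presentation were taken from 4 lists holding 43 symbols, of which 37 were in the table and 26 passed the filter on low values. Of the 26, 0 passed the adjusted threshold in either direction by edgeR, DESeq2 or limma-voom, and 5 had an unadjusted p under 0.05, all with the libraries labelled Alox15-/- higher. Their median log2 fold change was 0.088, with 18 above and 8 below 0, and WT replicate 4 was the lowest library for 12 of them. The medians of the 4 lists lay between -0.0063 and 0.26, and between -0.0445 and 0.19 without WT replicate 4. The tested heavy chains outside the members (6 of 23) had a median of 0.26, and of 0.19 without WT replicate 4, which was the lowest library for 4 of the 6. H2-T23, which encodes Qa-1, the ligand of the inhibitory NK cell receptor CD94/NKG2A, had the smallest p of its list. It was at 114 ± 7.63 CPM against 94.8 ± 8.35 CPM (SD, n = 4), without overlap, at a log2 fold change of 0.26 (edgeR adjusted p = 0.493).

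All 5 genes of the immunoproteasome and its activator were above 0, with a median log2 fold change of 0.26. WT replicate 4 was the lowest library for 3 of them, among them Psmb8 (233 CPM against 358 to 416 CPM in the other WT libraries) and Psmb9 (108 CPM against 179 to 228 CPM). Without it the median was 0.14, with 5 of 5 above 0. Psmb10, a catalytic subunit, was at 93.1 ± 13.9 CPM against 75.4 ± 10.8 CPM (SD, n = 4; log2 fold change 0.30, edgeR adjusted p = 0.573). The 5 genes of peptide loading and trimming had a median of -0.0063. Canx, the chaperone calnexin that receives new heavy chains, had the smallest p among them and was the other way round, at 502 ± 46.9 CPM against 571 ± 16.6 CPM (SD, n = 4), with every library labelled Alox15-/- below every WT library (log2 fold change -0.19, edgeR adjusted p = 0.681). Among the 10 transcription factors that act on class I promoters, 5 were above and 5 below 0. Irf1, an interferon-induced activator of class I genes, had the smallest p, at 93.8 ± 18.7 CPM against 72.8 ± 15.5 CPM (SD, n = 4; log2 fold change 0.35, edgeR adjusted p = 0.636). WT replicate 4 was at 49.7 CPM of Irf1 and the other WT libraries at 78.9 to 83.3 CPM, and the log2 fold change without it was 0.22. The factors of the X and Y boxes, Rfx5, Rfxap, Rfxank, Creb1, Nfya, Nfyb and Nfyc, lay between -0.25 and 0.03.

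The members also differed in how closely they kept to their shared profile, which was taken as the mean of the 10 log2 levels, each centred on its own mean over the 8 libraries. H2-K1 was closest, at a root mean square difference of 0.0522, and H2-Q4 furthest, at 0.379. Outside the class I genes, the 5 tested genes nearest to this profile were Lamtor2 (0.0596), Gm10232 (0.0668), Cog3 (0.0721), Hn1l (0.0752) and Cd3g (0.083). Lamtor2 is a subunit of the Ragulator complex on lysosomes, Cog3 a subunit of a Golgi tethering complex and Cd3g a chain of the T cell receptor complex. Their log2 fold changes were between 0.20 and 0.31, and none of the 5 was called (edgeR adjusted p between 0.294 and 0.805).

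**Figure D4:**
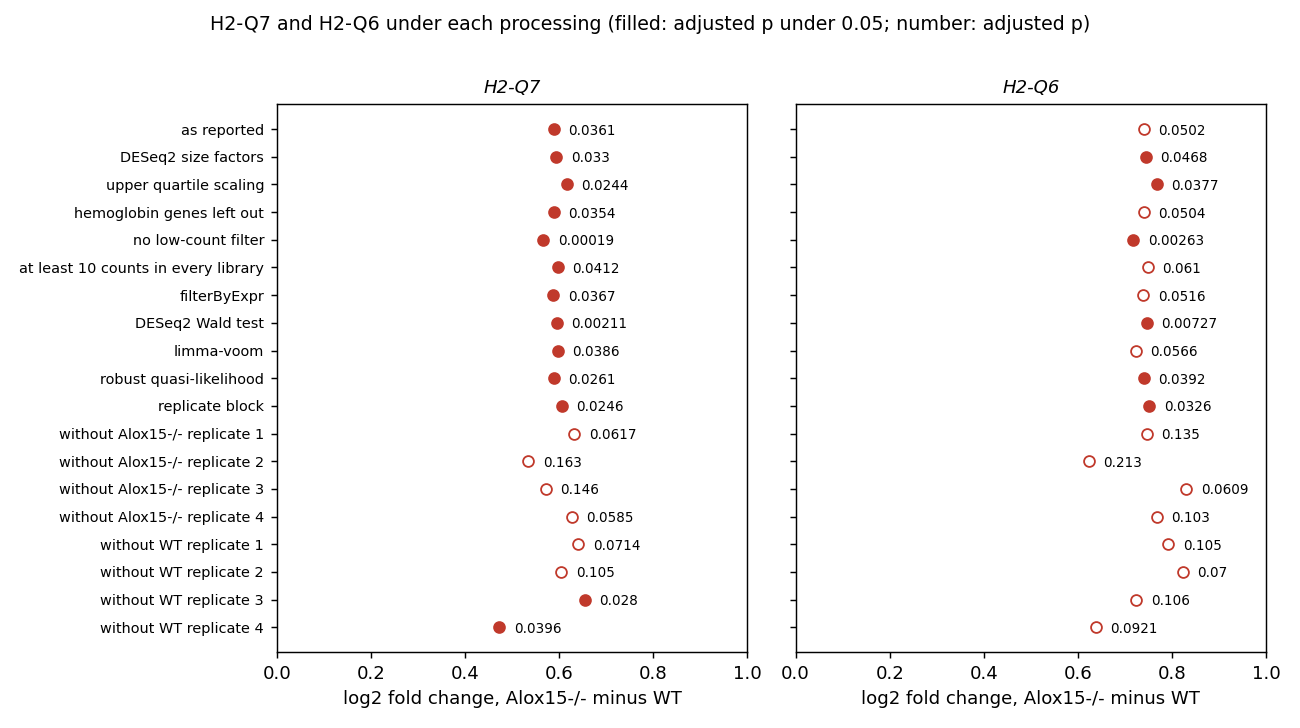
Log2 fold change (horizontal axis, Alox15-/- minus WT) of H2-Q7 and H2-Q6 under each processing (vertical axis), filled where the adjusted p is under 0.05 and with that p beside the point. H2-Q7 stays between 0.47 and 0.66 and H2-Q6 between 0.62 and 0.83, and the 6 open points of H2-Q7 are all fits that leave out a library.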

How the data were processed

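The 8 MACE-seq libraries were analysed from the table of raw counts per gene symbol that the authors deposited, without normalization. Per the labels, reads were cleaned and trimmed, and the submitters' processing notes name Bowtie, edgeR and GRCm38. The counting tool, strand setting and removal of duplicates are not given in the sources used here, and one protocol label names a small RNA kit where the methods name a MACE kit. Columns were assigned by name. Library sizes were adjusted with TMM factors (edgeR 4.0.16, R 4.3.3), and CPM were computed from them. The filter kept genes reaching 2 CPM in 4 or more libraries. Differences were tested by edgeR's quasi-likelihood test on group alone, and p-values were adjusted by Benjamini–Hochberg over all genes tested. The standard error was taken as the log2 fold change divided by the square root of F. The steps were checked on simulated counts, where 94.9% of genes changed by 1.5 on the log2 scale were called. At a change of 0.6 the share called was 40.2%, and among unchanged genes it was 0.0324%. Smaller changes were not simulated, so a member that was not called may still differ. Levels in text are arithmetic means with SD. Positions come from GENCODE M21 (GRCm38), the build of the notes. Promoter windows are from RefSeq (GRCm38.p6). Ratios were compared in scipy 1.17.1.

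The members, lists and tests were chosen with earlier results of these data known. The genes named were the 10 members, Alox15, the gene of each list with the smallest p, and the 5 nearest profiles (log2 of CPM plus 0.5). Alternatives were other scalings (DESeq2 1.42.0, upper quartile, hemoglobin genes left out), filters and tests (DESeq2, limma-voom with limma 3.58.1, a robust fit), a replicate block, summed copies, ratios on the linear scale and each library left out. Nothing says that libraries of a group came from separate cultures beyond the mice in the design, and p-values measure the spread between these libraries.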

Additional observations from a re-analysis of the deposited data

Results flagged for a closer look

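Dixon's test flagged no value. It was applied to 26 groups of 4 libraries (10 members and 3 ratios, each in both groups). In 0 of them did the gap of the highest or lowest library to its neighbour pass the 95% critical value. Chance passes that value in about 1 of 20 groups. With 4 libraries the gap must take up most of the range to pass, so the test cannot show that no value lay far off. WT replicate 4, the lowest library for all 10 members, was not flagged for any of them.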

How the results depend on the processing

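The number of genes called moved from 158 to 388 without the low-count filter and to 100 with at least 10 counts in every library, and lay between 86 and 173 with each library left out. The members called were 2 (H2-Q6 and H2-Q7) with DESeq2 size factors, with upper quartile scaling, without the filter, with the DESeq2 Wald test and with the robust fit, 0 with copies summed, and between 0 and 1 with a library left out. With the replicate number as a block, which the labels do not say pairs mice, 2 members and 146 genes were called (H2-Q6 at edgeR adjusted p = 0.0326). Same-numbered libraries correlated at 0.0691, 0.165, -0.178 and -0.0177 after centring on the groups, and 1 of 4 correlated best with its own number, so the numbers were not taken to pair them. H2-Q4 turned to a log2 fold change of -0.24 without Alox15-/- replicate 4 and -0.15 without WT replicate 4 (-0.24 to 0.17 over the 8 libraries left out), and Tap1 to -0.013 without Alox15-/- replicate 1 and -0.028 without WT replicate 4 (-0.028 to 0.12). The cause was not tested. With a library left out, Tap2 ranged from 0.090 (without Alox15-/- replicate 1) to 0.22 (without Alox15-/- replicate 4), and Tapbp from 0.11 to 0.27 without the same libraries. The other 8 members kept a log2 fold change above 0 in every setting that gave them a value (summed copies give none for H2-K1, H2-D1, H2-Q6 and H2-Q7), 0 genes of the other class I lists were called in any, and the 3 ratios kept their direction and stayed above the threshold, which 4 libraries against 3 cannot reach. Depth limited H2-Q4 and H2-Q6 most, with 32 to 157 and 56 to 175 reads a library.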
